A study of Mus musculus with 6 samples.

Results

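The miR-15/16 family was measured in exosomes released from HN9.10e cells, an immortalized mouse embryonic hippocampal line, as 8 of the 1973 miRNA hairpin rows of a small RNA count table. The 8 rows were taken by name from GENCODE M21: Mir15a, Mir15b, Mir16-1, Mir16-2, Mir195a and Mir322, with Mir503, which is encoded beside Mir322, and Mir497b, which lies opposite Mir497 and stands for it. Wild-type cells were left untreated (control, 3 libraries) or received 100 nM ceramide in the medium (ceramide, 3 libraries; the methods name the short-chain C6-ceramide), and exosomes were taken from the medium after 48 h by filtration and a precipitation kit. Both groups were grown in medium with fetal bovine serum, and all libraries came from this single cell line. The study asked which exosomal miRNAs change when the cells are treated with ceramide.

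miRNAs of this family share the bases that pair with target mRNAs, the seed, and are best known for holding back the cell cycle through cyclins and other cell cycle regulators. The Mir15a and Mir16-1 pair is deleted in many human chronic lymphocytic leukaemias, and BCL2 is a classical target. The family is made from 4 short clusters in the genome, so its members differ in promoter but largely not in seed. miR-16 is abundant in many cells, in blood and in vesicles, and is often taken as a reference in measurements of extracellular miRNA.

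The mature sequences are shown because they decide which rows can be told apart by their reads. They are RefSeq sequences on GRCm38.p6, written 5′ to 3′, with the seed (bases 2 to 8) in capitals, and all 8 rows had a mature sequence there. The first group carries the seed AGCAGCA, which 10 of the 1679 mature miRNAs in the RefSeq table have.
miR-15a-5p: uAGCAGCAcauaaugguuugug
miR-15b-5p: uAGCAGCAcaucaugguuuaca
miR-16-5p: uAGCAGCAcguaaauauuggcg
miR-195a-5p: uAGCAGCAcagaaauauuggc
miR-322-5p: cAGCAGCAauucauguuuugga
miR-497a-5p: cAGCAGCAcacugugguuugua
miR-503-5p differs from these at the last base of the seed, and the miRNA annotated on the Mir497b hairpin has another seed altogether.
miR-503-5p: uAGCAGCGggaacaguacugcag
miR-497b: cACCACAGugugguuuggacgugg

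miR-16-5p is made from both Mir16-1 on chromosome 14 and Mir16-2 on chromosome 3. The 2 hairpins share an unbroken stretch of 23 bases that holds all of miR-16-5p, and of their mature miRNAs only those of the 3p arm differ.
miR-16-1-3p: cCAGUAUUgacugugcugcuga
miR-16-2-3p: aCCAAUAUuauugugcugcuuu
The counts of the Mir16-1 row exceeded those of the Mir16-2 row by 184, 370 and 513 in control replicates 1, 2 and 3 and by 273, 1259 and 1534 in ceramide replicates 1, 2 and 3. This was 0.268% to 0.823% of the Mir16-2 count, so both rows held nearly the same reads and are a single measurement of miR-16-5p. miR-16-5p and miR-195a-5p are the closest distinct pair, with 19 identical bases of 21 compared from the first base, but their hairpins share at most 12 bases in a row. The table has no row for Mir497 (chr11:70234717-70234800, plus strand), and its whole hairpin of 84 bases lies within Mir497b (chr11:70234692-70234816, minus strand). The use of strand in counting is not given in the sources used here, so reads of miR-497a and of miR-497b cannot be told apart in this row.

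The family lies in 4 clusters of GRCm38. Mir15a (chr14:61632027-61632110) and Mir16-1 (chr14:61631880-61631972) are 54 bases apart on the minus strand within the noncoding RNA Dleu2, the first in an intron and the second overlapping an exon. Mir15b (chr3:69009772-69009835) and Mir16-2 (chr3:69009902-69009996) are 66 bases apart on the plus strand in an intron of Smc4, which encodes a condensin subunit. Mir195a (chr11:70235042-70235135, plus strand) lies 225 bases from Mir497b. Mir322 (chrX:53054255-53054349) and Mir503 (chrX:53053984-53054054) are 200 bases apart on the minus strand, where GENCODE M21 has no overlapping gene.

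The total count ran from 800810 in ceramide replicate 1 to 2760015 in ceramide replicate 2. All 8 rows were among the 418 that passed the filter on low counts, with 6828 (Mir497b) to 753601 (Mir16-1) counts over the 6 libraries. The Mir16-1 and Mir16-2 rows ranked just below the row with the most counts of all. Levels below are normalized CPM, which are shares of a library's counts put on a common scale with edgeR's TMM factors, so a change in the number of vesicles and a change in their RNA content cannot be told apart. Of 15 neuronal marker rows listed, 14 were in the table and none was at 0, with a summed level of 21622 to 22823 CPM in control and 20123 to 25056 CPM in ceramide libraries. The defining Mir124a-1 had 160 counts over the 6 libraries, and 3 of the 14 (Mir128-2, Mir138-1 and Mir153) were called lower with ceramide, beside 8.37% of all tested rows. By sign 10 of the 14 were lower and 4 higher, with a median log2 fold change of -0.32. In 8 of the 14 the groups did not overlap, with Mir137 alone among them higher, beside 164 of the 418 tested rows. Mir124a-1, Mir124a-2 and Mir124a-3 held nearly the same counts (160, 159 and 159), as did Mir9-2 and Mir9-3 (680 and 683). The 14 rows thus stand for fewer separate measurements. The defining Mir124a-1, Mir124a-2 and Mir124a-3 were lower without overlap, by -0.43, -0.45 and -0.45 on the log2 scale, and were not called. Mir9-2 and Mir9-3, which are also defining, were on the higher side with overlap, each by 0.14 on the log2 scale. Mir218-2, on the higher side by 0.46 on the log2 scale, had the largest part of the sum. The study speaks of biological replicas, while the labels do not say whether the libraries came from separate cultures, so the p-values below measure the spread between these libraries, which may be technical.

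Control replicate 1 and ceramide replicate 1 carry lane 1 in their labels, control replicates 2 and 3 lane 4, and ceramide replicates 2 and 3 lane 2. Outside lane 1, lane and treatment cannot be told apart. The labels do not name the run, and both replicate 1 libraries carry the same sample number. It is thus not known whether they shared a run. Libraries with the same replicate number deviated together from their group means (correlations of 0.59, 0.43 and 0.75 over the tested rows). Pairs with different numbers ran from -0.59 to 0.105. No label states a pairing, so the replicate block was chosen from these same data, and p-values under it are not independent support. Values with the replicate number as a block are given where they change a result.

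None of the 8 family rows was called changed by ceramide. A row was called at an adjusted p up to 0.05 in edgeR's quasi-likelihood test and a log2 fold change of 0.6 or more in either direction, and 11.5% of all tested rows met both. By p alone, 2 of the 8 rows passed, Mir16-1 and Mir16-2, against 19.9% of all tested rows, and since these are the same reads they count as 1 miRNA. At an unadjusted p under 0.05 there were 3 of the 8 rows, with Mir195a added, beside 153 of the 418 tested rows. With Mir16-2 left out it was 2 of 7 rows. DESeq2 and limma-voom also called 0 of the 8, beside 38 of 1058 and 49 of 418 rows. In each, 3 family rows had an unadjusted p under 0.05, which was not counted over all rows there. The log2 fold changes lay between -0.10 (Mir503) and 0.38 (Mir195a), with a median of 0.15, and the median of all tested rows was -0.01. Of the 8 rows, 7 were on the higher side and 1 (Mir503) on the lower side in ceramide, under each of the 4 scalings tried.

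**Figure D1:**
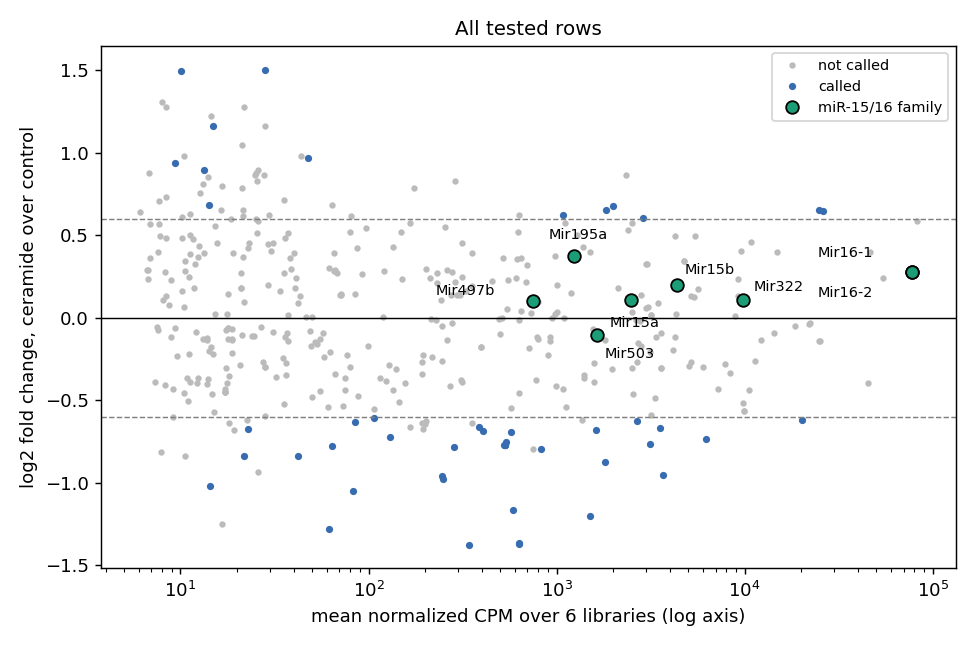
Log2 fold change of ceramide over control against mean normalized CPM (log axis) for the 418 tested rows, with the 8 family rows labelled. Dashed lines mark the fold threshold of 0.6 in both directions, called rows are blue, and all family rows lie between the dashed lines, with Mir16-1 and Mir16-2 at the far right.

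miR-16 was the dominant member. The Mir16-1 row had 68676, 74176 and 67557 normalized CPM in control replicates 1, 2 and 3 and 86723, 88430 and 80004 normalized CPM in ceramide replicates 1, 2 and 3. Every ceramide library lay above every control library, and so it did in Mir16-2 and Mir195a. No family row had all ceramide libraries below all control libraries. Over all tested rows, 14.1% had the ceramide libraries wholly above and 25.1% wholly below the control libraries.

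Mean CPM of Mir16-1 was 70136 ± 3543 without and 85052 ± 4455 with ceramide (SD, n = 3 each). This is a log2 fold change of 0.28 (standard error, SE, 0.07, 95% confidence interval 0.11 to 0.44, adjusted p = 0.038 from edgeR), and the interval lies below the fold threshold. For Mir16-2 it was 0.28 (SE 0.07) at an adjusted p of 0.039. When Mir16-1 and Mir16-2, like other nearly identical rows, were joined into 1 row, the adjusted p was 0.0504 at a log2 fold change of 0.27. With the replicate block the adjusted p of Mir16-1 was 0.0014 at the same log2 fold change of 0.28, where 45.2% of all tested rows passed by p alone.

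The difference was present within each replicate number. On the log2 CPM scale, Mir16-1 was higher in ceramide by 0.34, 0.25 and 0.24 in replicates 1, 2 and 3. The replicate 1 value is also the difference between the libraries labelled lane 1, which may come from different runs. With lane as a term the log2 fold change was 0.34 with an adjusted p of 0.24 from edgeR. The adjusted p of Mir16-1 also exceeded 0.05 with upper-quartile scaling (0.059), with no filter on low counts (0.24) and with DESeq2 (0.16). It did so too without control replicate 1 (0.16), control replicate 3 (0.12), ceramide replicate 1 (0.094) or ceramide replicate 2 (0.17).

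Blood is rich in miR-16, and the medium held serum, so miRNAs of blood and serum were read beside it. Of 9 such markers listed, 7 had a row, none was at 0, and their summed level was 412 to 449 CPM in control and 400.2 to 446 CPM in ceramide libraries. The sum overlapped between groups, but its largest part was Mir486, a red-cell miRNA, which was at 268 ± 25.5 CPM without and 221 ± 39.9 CPM with ceramide (SD, n = 3 each). Of the 7 rows, 5 were on the higher side and 2 (Mir486 and Mir150) on the lower side. Their median log2 fold change was 0.39, which is above that of Mir16-1. None of the 7 was called, beside 11.5% of all tested rows. Mir451a, which is specific to red cells, was at 36.8 ± 7.07 CPM without and 37.6 ± 3.86 CPM with ceramide (SD, n = 3 each). The white-cell marker Mir223 was at 20.5 ± 2.00 and 31.4 ± 4.61 CPM and the liver miRNA Mir122 at 56.5 ± 5.04 and 74.4 ± 0.896 CPM in the same order (SD, n = 3 each), with every ceramide library above every control library in both (adjusted p = 0.055 and 0.064 from edgeR). Mir142b was also higher without overlap and Mir150 lower without overlap, while Mir144 (log2 fold change 0.39) overlapped. The groups thus did not overlap in 4 of the 7 rows. Over all tested rows 14.1% were wholly higher and 25.1% wholly lower in ceramide. The part of serum in the level of miR-16 was not tested.

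**Figure D2:**
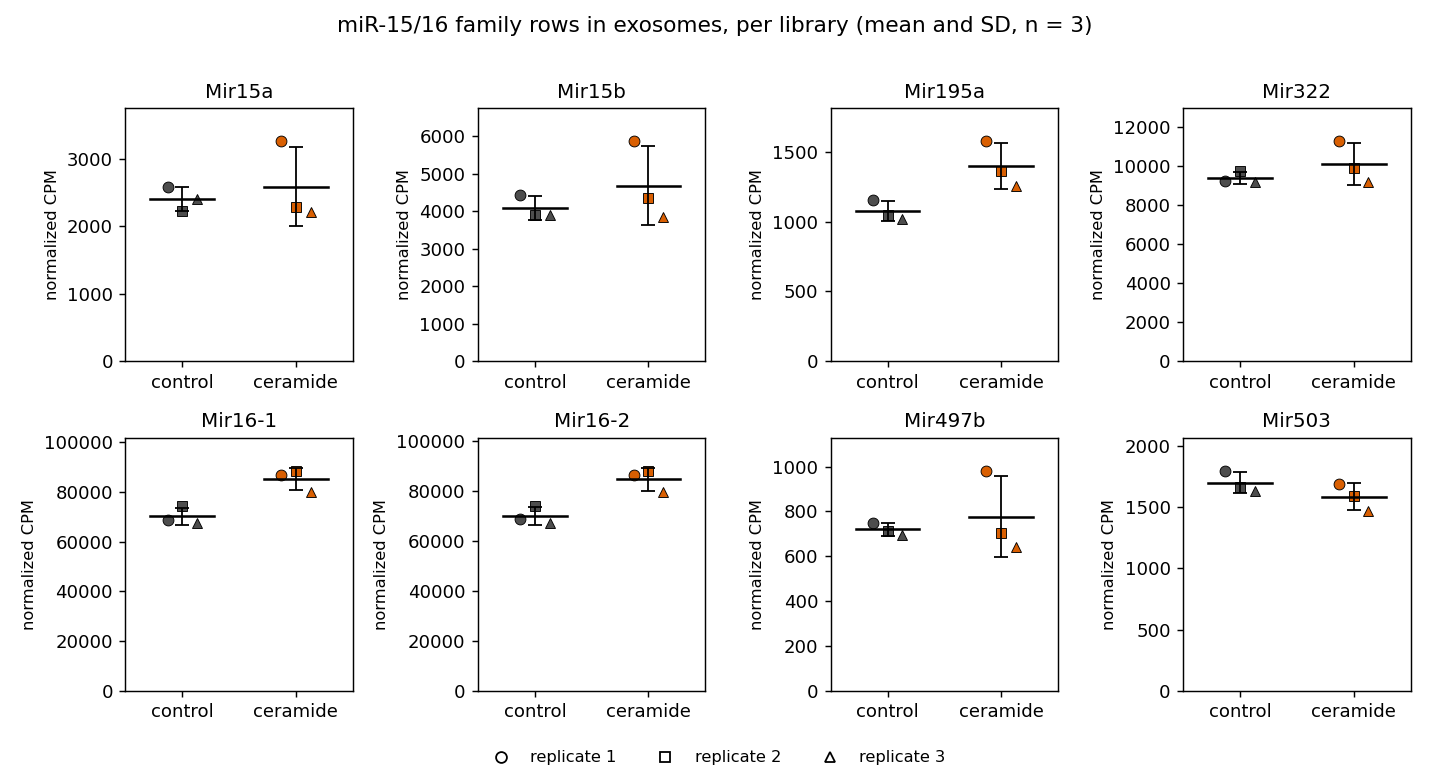
Normalized CPM (linear axis from 0) of each family row in the 3 control and 3 ceramide libraries, with the replicate number as the symbol and the mean and SD as lines. The Mir16-1, Mir16-2 and Mir195a panels have all ceramide libraries above all control libraries, and the Mir15a, Mir15b and Mir497b panels have ceramide replicate 1 far above the rest.

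Mir195a, whose miR-195a-5p is known with miR-497 for cell cycle arrest of heart muscle cells after birth, had the largest difference of the family. It had 1160, 1052 and 1022 CPM in control replicates 1, 2 and 3 and 1579, 1362 and 1258 CPM in ceramide replicates 1, 2 and 3, again without overlap. The log2 fold change was 0.38 (SE 0.11, 95% confidence interval 0.11 to 0.64), and its adjusted p of 0.058 from edgeR missed the threshold. With the replicate block the adjusted p of Mir195a was 0.0087 at a log2 fold change of 0.37. The block thus put 3 of the 8 rows past p alone, against 45.2% of all tested rows with the block, and none past the fold threshold.

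Mir497b, next to Mir195a, behaved otherwise. It had 749, 715 and 695 CPM in control replicates 1, 2 and 3 and 981, 705 and 641 CPM in ceramide replicates 1, 2 and 3, so ceramide replicate 1 was the highest and ceramide replicate 3 the lowest of all libraries. The log2 fold change was 0.10 (SE 0.17, 95% confidence interval -0.29 to 0.49, adjusted p = 0.66 from edgeR).

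Mir15a and Mir15b, whose mature 5p miRNAs have 18 identical bases of 22, lie on different chromosomes and had the same pattern as Mir497b. Mir15a had 2589, 2224 and 2412 CPM in control replicates 1, 2 and 3 and 3265, 2294 and 2222 CPM in ceramide replicates 1, 2 and 3. Mir15b had 4437, 3903 and 3902 CPM in control replicates 1, 2 and 3 and 5859, 4352 and 3828 CPM in ceramide replicates 1, 2 and 3. In both, ceramide replicate 1 was the highest library, ceramide replicate 3 was the lowest, and the groups overlapped.

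Mir15a was higher by 0.11 on the log2 scale (SE 0.16) with an edgeR adjusted p of 0.64, and Mir15b by 0.20 (SE 0.16) with an adjusted p of 0.40. The 95% confidence intervals were -0.28 to 0.49 and -0.19 to 0.58, so a change of the size seen in miR-16 was not detectable at this spread. Without ceramide replicate 1, on the log2 scale, the fold changes were -0.11 for Mir15a, -0.016 for Mir15b and -0.12 for Mir497b. That library had the smallest total count of all.

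Mir322 is the mouse counterpart of human miR-424 and, with miR-503, is known for promoting cell cycle exit in differentiating muscle cells. Mir322 had 9219, 9731 and 9163 CPM in control replicates 1, 2 and 3 and 11265, 9901 and 9161 CPM in ceramide replicates 1, 2 and 3. The groups overlapped, with a log2 fold change of 0.11 (SE 0.09, 95% confidence interval -0.11 to 0.33, adjusted p = 0.41 from edgeR). Without ceramide replicate 1 it was 0.0055. Mir503 had 1798, 1668 and 1637 CPM in control replicates 1, 2 and 3 and 1693, 1590 and 1472 CPM in ceramide replicates 1, 2 and 3. It was lower in ceramide in 3 of 3 replicate numbers, yet the groups overlapped and the log2 fold change of -0.10 (SE 0.09, 95% confidence interval -0.32 to 0.11, adjusted p = 0.42 from edgeR) did not pass. Leaving out each library in turn moved it from -0.17 (without ceramide replicate 1) to -0.05 (without ceramide replicate 3).

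Ratios of clustered rows within a library do not depend on scaling. They set partners of 1 cluster against each other for Mir322 to Mir503 and for Mir195a to Mir497b. The ratios of Mir15a to Mir16-1 and of Mir15b to Mir16-2 are set against nearly the same miR-16 reads. These cannot be assigned to 1 cluster, so the 2 ratios are not separate comparisons of partners. The 4 ratios were compared by an exact two-sided permutation test, which for 3 libraries against 3 cannot give a p below 0.1. Mir322 held 5.13, 5.83 and 5.60 counts for each Mir503 count in control replicates 1, 2 and 3 and 6.65, 6.23 and 6.22 in ceramide replicates 1, 2 and 3. Every ceramide library had the higher ratio, by 0.21 on the log2 scale (exact permutation p = 0.1, adjusted over the 4 ratios p = 0.2), from 2.46 ± 0.0953 to 2.67 ± 0.0552 (SD, n = 3 each).

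Mir195a held 1.55, 1.47 and 1.47 counts for each Mir497b count in control replicates 1, 2 and 3 and 1.61, 1.93 and 1.96 in ceramide replicates 1, 2 and 3. The ceramide libraries were again all higher, by 0.29 on the log2 scale (exact permutation p = 0.1, adjusted p = 0.2). The ratios of Mir15a to Mir16-1 and of Mir15b to Mir16-2 overlapped between groups, with log2 differences of -0.19 (exact permutation p = 0.3, adjusted p = 0.4) and -0.10 (exact permutation p = 0.6, adjusted p = 0.6). With each library left out in turn they ran from -0.35 to -0.085 and from -0.26 to -0.01, the lowest without ceramide replicate 1 in both. In both of these, replicate 1 had the highest ratio of its group in control and in ceramide exosomes. None of the 4 ratios could reach an adjusted p of 0.05 in this permutation test.

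**Figure D3:**
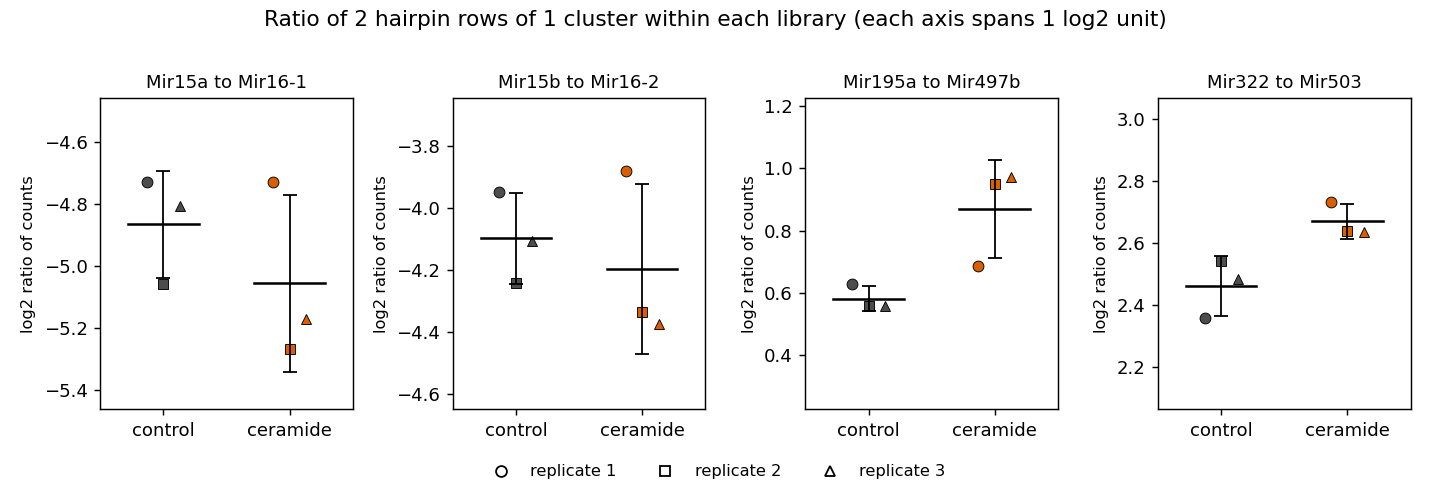
Log2 ratio of the counts of 2 rows of the same cluster in each library, with mean and SD (n = 3) and each axis spanning 1 log2 unit. The Mir195a to Mir497b and Mir322 to Mir503 panels show no overlap between control and ceramide, while the Mir15a to Mir16-1 and Mir15b to Mir16-2 panels overlap.

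Pairs of members differed in how closely they varied together over the 6 libraries. The correlation of log2 CPM was 0.94 between Mir15a and Mir15b (Spearman 0.83), 0.96 between Mir15a and Mir497b (Spearman 0.77) and 0.96 between Mir15b and Mir497b (Spearman 0.94). It was 0.86 between Mir16-1 and Mir195a (Spearman 0.89) and 0.24 between Mir15a and Mir16-1 (Spearman -0.09). The reads of the Mir16-1 row cannot be assigned to its own hairpin, so its value with Mir15a does not compare cluster partners. Mir322 gave 0.89 with Mir497b (Spearman 0.77) and 0.88 with Mir15b (Spearman 0.83) but 0.22 with its neighbour Mir503 (Spearman 0.43). Mir195a lay between, with 0.81 to Mir15b (Spearman 0.54) and 0.78 to Mir322 (Spearman 0.60). These are descriptions over 6 points that share their library, its depth and its scaling. Ceramide replicate 1 was the highest library in Mir15a, Mir15b, Mir497b, Mir322 and Mir195a, and correlations without it were not computed. How many of all rows were this close to Mir15a, Mir15b or Mir497b was not counted. The coefficient of variation over the 3 ceramide libraries was 22.5% for Mir15a, 22.5% for Mir15b, 23.3% for Mir497b, 11.7% for Mir195a, 10.6% for Mir322, 6.98% for Mir503 and 5.24% for Mir16-1. In control it was 3.34% (Mir322) to 7.57% (Mir15a), and the spreads were not tested.

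Levels of different members were compared per kilobase of hairpin. The mature miRNAs have 21 to 24 bases whatever the hairpin length (64 to 125 bases), so this scale also carries the annotated length. In control exosomes the order was Mir16-1 (754155 ± 38092 CPM per kilobase), Mir16-2 (735393 ± 37561), Mir322 (98642 ± 3294), Mir15b (63760 ± 4819), Mir15a (28669 ± 2171), Mir503 (23959 ± 1206), Mir195a (11469 ± 768) and Mir497b (5758 ± 220.0), all SD with n = 3. The order was the same in ceramide exosomes. On this scale only Mir16-1 and Mir16-2 overlapped, and every other neighbouring pair in the order was apart in all 3 libraries of both groups. By mean CPM without division by length the order was the same. Mir195a in ceramide replicate 1 (1579 CPM) then lay above Mir503 in ceramide replicate 3 (1472 CPM). The partner with the higher level on this scale was Mir195a beside Mir497b and Mir322 beside Mir503. The Mir16-1 and Mir16-2 rows lay above Mir15a and Mir15b. They hold nearly the same reads, so neither Mir16 hairpin can be ranked against its own partner.

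Together the 8 rows took up 16.4 ± 0.480% of the counts without and 18.5 ± 0.660% with ceramide (SD, n = 3 each), a difference of 2.17 percentage points. This total contains most miR-16 reads on both Mir16 rows. When nearly identical rows were joined throughout the table, the share was 10.9 ± 0.295% and 12.2 ± 0.568%. With miR-16 entered once, it made up 78.3 ± 0.943% of the family's counts without and 80.1 ± 1.96% with ceramide (SD, n = 3 each). The share of the other 6 rows was 1.99 ± 0.0596% and 2.05 ± 0.276%, so the larger part of the difference in share lay in the Mir16 rows.

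Beyond the family, 5 rows lie within 10 kb of a member, all on the minus strand of chromosome X near Mir322 and Mir503. They are Mir351, Mir542, Mir450-1, Mir450-2 and Mir450b. None of the 5 was called, beside 11.5% of all tested rows, so few calls could be looked for among 5 rows. Their log2 fold changes ran from -0.45 (Mir450-2) to 0.11 (Mir542) with a median of -0.20, beside -0.01 over all tested rows. Mir351, which has the seed of the miR-125 family, was the most abundant of them. It had 1581, 1353 and 1810 CPM in control replicates 1, 2 and 3 and 1171, 1071 and 1432 CPM in ceramide replicates 1, 2 and 3, which is -0.37 on the log2 scale (SE 0.15) with an edgeR adjusted p of 0.13. Ceramide replicate 3 lay above control replicate 2, so the groups overlapped, but within replicates 1, 2 and 3 ceramide minus control was -0.43, -0.34 and -0.34 for Mir351 on the log2 scale, lower each time. With the replicate block the adjusted p of Mir351 was 0.0075 at -0.37 (SE 0.07), short of the fold threshold, where 45.2% of all tested rows passed by p alone. Mir450-2 and Mir450b were also lower within 3 of 3 replicate numbers, with adjusted p of 0.11 and 0.15 under the block in edgeR. Mir542 was at 235 ± 32.2 CPM without and 252 ± 46.5 CPM with ceramide (SD, n = 3 each), and Mir450-1 and Mir450-2 were under 20 CPM on average in both groups.

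**Figure D4:**
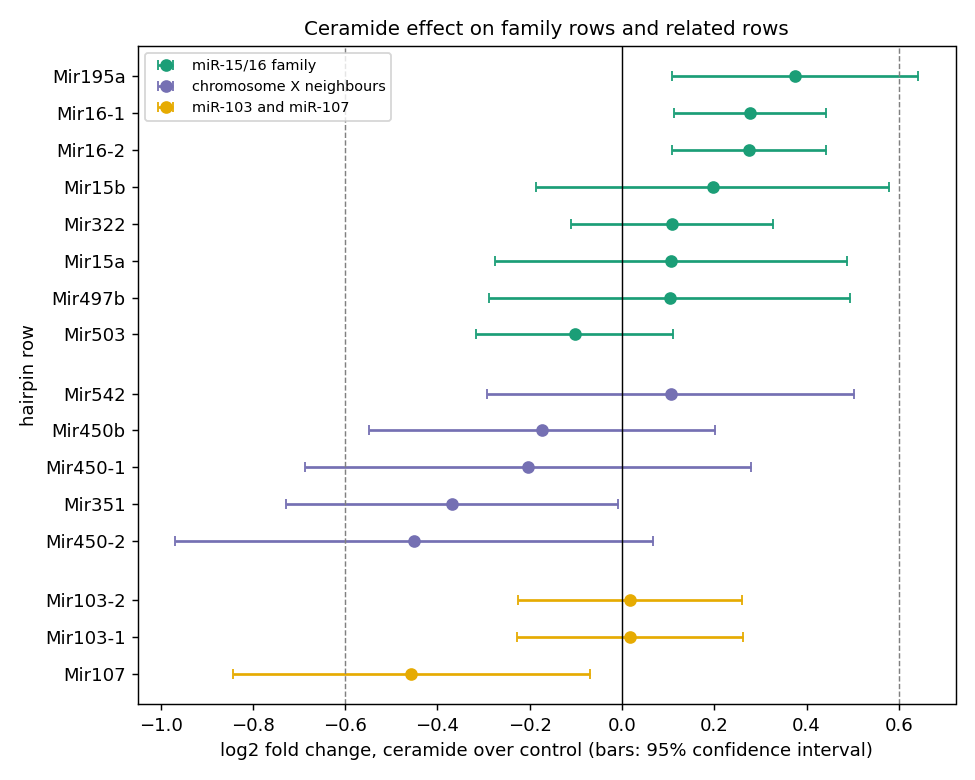
Log2 fold change of ceramide over control with its 95% confidence interval for the 8 family rows, the 5 chromosome X neighbours and the 3 rows of miR-103 and miR-107. Dashed lines mark the fold threshold of 0.6, and the interval lies wholly above 0 for Mir195a, Mir16-1 and Mir16-2 and wholly below 0 for Mir351 and Mir107.

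Outside the family, 7 rows have a mature miRNA with the bases AGCAGC within positions 1 to 7 (0.774% of all mature miRNAs in the RefSeq table, family included, hold these letters there). For miR-103 and miR-107, which are encoded in introns of the pantothenate kinase genes and act in insulin signalling, the letters start at the first base instead of the second, so the seed is shifted.
miR-103-3p: aGCAGCAUuguacagggcuauga
miR-107-3p: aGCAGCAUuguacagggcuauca
Mir103-1 was at 3159 ± 316 CPM without and 3197 ± 243 CPM with ceramide (SD, n = 3 each), a change of 0.02 on the log2 scale (SE 0.10, 95% confidence interval -0.23 to 0.26). Mir103-2, which encodes the same mature miRNA, held nearly the same counts. Mir107 had 840, 668 and 690 CPM in control replicates 1, 2 and 3 and 655, 470.0 and 483 CPM in ceramide replicates 1, 2 and 3. All its ceramide libraries lay below all control libraries, with a log2 fold change of -0.46 (SE 0.16) and an adjusted p of 0.094 from edgeR that did not pass. With the replicate block the adjusted p of Mir107 was 0.0056 at -0.46 (SE 0.08), again short of the fold threshold. By p alone, 45.2% of all tested rows passed under the block.

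The other 4 rows with these letters carry the family seed itself. Mir195b had 1 count over the 6 libraries. Mir6342, Mir6353 and Mir6419 had 0 of 9591121 counts, which allows a level of up to 0.313 CPM, by counting error only. The AGCAGCA seed in these exosomes was thus read almost entirely from the family rows described above.

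By a fixed rule, the tested row outside the family most like the row with the most counts in each cluster was found by the correlation of log2 CPM over the 6 libraries. For Mir16-1 and for Mir16-2 it was Mir196a-1, a miRNA of the Hox clusters (0.99 for both), which had 433, 481 and 447 CPM in control replicates 1, 2 and 3 and 593, 610.2 and 549 CPM in ceramide replicates 1, 2 and 3. For Mir195a it was Mir20b of the miR-17 family (0.997), and for Mir322 it was Mir467d (0.97). Of the 410 rows compared, 27 had a correlation of at least 0.9 with Mir16-1, 27 with Mir16-2, 19 with Mir195a and 8 with Mir322. No named row thus stood alone at this level.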

How the data were processed

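Small RNA of exosomes of HN9.10e cells (3 control and 3 ceramide libraries) was sequenced with a QIAseq miRNA kit. The authors trimmed reads with Cutadapt, aligned them to GRCm38 with STAR, assigned them to GENCODE miRNA genes and deposited raw counts, 1 per hairpin gene and library. A row does not separate the arms of its hairpin. GENCODE release, strand, reads with several alignments and molecular identifiers are not given in the sources used here.

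Names and coordinates came from GENCODE M21 (1894 of 1973 rows matched). Counts were tested with edgeR 4.0.16 (R 4.3.3; quasi-likelihood, TMM, filterByExpr, condition only), with Benjamini-Hochberg adjustment over 418 rows. Standard errors came from the F statistic. Normalized CPM used the same factors. Ratios had 0.5 counts added to both rows for the log2 scale.

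The thresholds were the study's. DESeq2 1.42.0, limma-voom (limma 3.58.1), other scalings, no filter, no fold threshold, the replicate block, lane, joining of rows within 5% of each other and leaving out each library were alternatives. The replicate numbers were taken as pairing the libraries because every same-numbered pair correlated above 0.1. Control replicate 2 with ceramide replicate 1 (0.105) also did so, and no label states a pairing. Named rows were the family, rows within 10 kb of it, rows with AGCAGC in positions 1 to 7 of a mature miRNA, and the most alike row per cluster. The members and lists were chosen with earlier results of these data known. The test was checked on simulated data with log2 changes larger than those of any family row and without a replicate block. It called 175 of 200 changed rows and 5 unchanged rows. This check does not cover changes of the size seen in the family.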

Additional observations from a re-analysis of the deposited data

How the results depend on the processing

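With no fold threshold 2 family rows passed (Mir16-1 and Mir16-2), and in the 15 other settings that kept it 0 were called, including the replicate block. Joining nearly identical rows moved the difference in the family's share of counts to 1.30 percentage points. Over 15 settings for each of the 8 rows, 117 of 120 log2 fold changes kept their direction and their side of the call. The 3 that turned were Mir15a (-0.11), Mir15b (-0.016) and Mir497b (-0.12) without ceramide replicate 1. With each library left out in turn, the log2 fold changes ran from -0.11 to 0.21 for Mir15a, from -0.016 to 0.32 for Mir15b and from -0.12 to 0.22 for Mir497b, and the cause was not tested. The median of all rows lay between -0.09 and 0.10. Mir16-1 stayed between 0.20 (library size alone) and 0.35 (DESeq2 size factors in edgeR), with an adjusted p between 0.0014 and 0.24. Mir195a stayed between 0.26 and 0.45, with an adjusted p between 0.0087 and 0.18. The replicate block gave log2 differences of 0.21 for the Mir322 to Mir503 ratio and 0.29 for the Mir195a to Mir497b ratio, both with an exact sign-flip p of 0.25, the smallest that 3 pairs allow.

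The number of all rows called was 48, with 87 under the replicate block, 29 with lane as a term, and 28 without control replicate 1. The precision rests on 3 libraries per group, and for Mir497b, the family row with the fewest counts, on 751 to 1005 counts per control library.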
